A study of Mus musculus with 6 samples.

Results

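The cytochrome P450 genes of families Cyp1 to Cyp4 and the Ugt1 and Ugt2 genes were examined in mouse hepatoma tumors with or without sorafenib (Sora) treatment. Of the 26167 genes measured by RNA sequencing, 70 carried a Cyp1 to Cyp4, Ugt1, or Ugt2 symbol (56 Cyp and 14 Ugt genes). Described are the 28 genes (22 Cyp and 6 Ugt) that reached 10 counts in 3 or more of the 5 tumors for which counts were deposited. The other 42 are given as near-silent.

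The tumors were grown under the skin of female C57BL/6J mice, aged 6 to 8 weeks, from Hepa1-6 cells, an established mouse hepatoma line. Control tumors 1, 3, and 4 (n = 3) were compared with Sora-treated tumors 2, 3, and 4 (n = 3), whose mice received 10 mg/kg Sora ip on days 9, 11, 13, and 15. Levels are given in FPKM, which are read counts scaled to gene length and to the total of the library. What the control mice were injected with is not given in the sources used here, and no other allele or agent is named. Each tumor gave 1 library, with 31073830 to 36205814 counted reads. The counts of Sora tumor 4 were computed from its FPKM, so the edgeR calls are also given without that tumor. RNA of tumor tissue comes from hepatoma, immune, and stromal cells together, and in such bulk RNA fewer cells of a type and less RNA per cell cannot be told apart. Hepatoma identity was present in all tumors: the summed level of 15 hepatoma and hepatocyte markers was 2653.5 to 3305 FPKM in control and 2624 to 2729 FPKM in Sora tumors, although Apoh, Serpina1a, and Ahsg were too low to be tested.

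P450 enzymes are heme proteins of the endoplasmic reticulum that insert an oxygen atom into drugs, fatty acids, steroids, and vitamins, using electrons passed on by the reductase Por. UDP-glucuronosyltransferases (UGT) then attach glucuronic acid from UDP-glucuronic acid to such products, which makes them soluble for excretion. In adult liver, nuclear receptors set these genes: Nr1i2 (PXR) and Nr1i3 (CAR) act on Cyp3a and Cyp2b genes, the aryl hydrocarbon receptor (AhR) with its partner Arnt acts on Cyp1 genes, and HNF4A maintains the hepatocyte program. In humans, Sora itself is oxidized by a CYP3A enzyme and glucuronidated by a UGT1A enzyme.

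The promoters of 3 members are shown, because the results below turn on these genes and because 2 of them are textbook AhR targets. Each sequence runs 5′ to 3′ over the 250 bases before and 50 bases from the start site, as given by RefSeq for GRCm38.p6. Capitals mark the AhR core GCGTG on either strand (CACGC on the other) and, in Cyp2c68, also the HNF4A core CAAAGTCCA. Cyp1a1 lies at chr9:57697363-57697662 on the plus strand, Cyp1b1 at chr17:79715012-79715311 on the minus strand, and Cyp2c68 at chr19:39741052-39741351 on the minus strand.
Cyp1a1: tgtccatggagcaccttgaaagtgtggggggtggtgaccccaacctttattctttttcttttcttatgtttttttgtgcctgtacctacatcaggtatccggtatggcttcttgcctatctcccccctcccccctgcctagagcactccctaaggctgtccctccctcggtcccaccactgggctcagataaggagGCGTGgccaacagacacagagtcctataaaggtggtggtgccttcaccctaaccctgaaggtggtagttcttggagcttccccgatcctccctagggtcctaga
Cyp1b1: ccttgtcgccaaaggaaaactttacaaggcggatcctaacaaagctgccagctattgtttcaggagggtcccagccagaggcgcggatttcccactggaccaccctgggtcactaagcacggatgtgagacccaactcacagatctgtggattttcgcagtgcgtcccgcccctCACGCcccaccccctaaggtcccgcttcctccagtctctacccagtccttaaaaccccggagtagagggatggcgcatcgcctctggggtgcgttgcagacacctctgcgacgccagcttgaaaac
Cyp2c68: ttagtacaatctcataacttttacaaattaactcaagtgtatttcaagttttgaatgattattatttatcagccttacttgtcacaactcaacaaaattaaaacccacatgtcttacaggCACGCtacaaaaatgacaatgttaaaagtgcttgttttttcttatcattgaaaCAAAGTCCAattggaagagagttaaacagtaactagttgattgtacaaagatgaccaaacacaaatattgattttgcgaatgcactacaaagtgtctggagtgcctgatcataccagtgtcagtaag

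Counted with the start site as 0, the AhR core began at -54 in Cyp1a1 and at -76 in Cyp1b1. In Cyp2c68, an AhR core began at -130 and the HNF4A core at -77. A promoter sequence was at hand for 59 of the 70 members, and a member with several promoters is counted once if any of them holds the letters, whereas the shares of all promoters are per promoter. The AhR core was present in 10 of the 24 described and 3 of the 35 near-silent members with a sequence, and in 32.4% of all 32851 promoters of the same length. The HNF4A core was rarer, with a match in 0.475% of all promoters and in 6 members: Cyp2c40, Cyp2c65, Cyp2c67, Cyp2c68, Cyp3a11, and Cyp3a16. Of these 6, Cyp2c68 was the 1 described gene. The letters TATAAA, read on both strands, stood in 2 of the 24 described and 16 of the 35 near-silent members with a sequence, and in 13.6% of all promoters. These matches describe letters in a window and are no evidence of binding.

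Of the 70 members, 42 were near-silent in these tumors. Among these, Cyp4a10 was listed at 0 in all 6 tumors, 26 had 1 to 9 reads over the 6 tumors together, and 13 had 10 or more. Cyp4x1 and Ugt2b37 were above 0 in Sora tumor 4 only, where their reads could not be computed. The median was 4 reads over the 6 tumors, and the highest level of a near-silent gene in any tumor was 0.368 FPKM. No Cyp2a gene (3 listed) and no Cyp4a gene (3 listed) was described, and only 1 of 7 Cyp2c, 1 of 7 Cyp2d, and 1 of 6 Cyp3a genes was. Cyp3a11, the main inducible Cyp3a enzyme of mouse liver, had 3 reads in all. The caffeine-oxidizing Cyp1a2 had 10 reads, the coumarin hydroxylase Cyp2a5 had 7, the CAR target Cyp2c29 had 9, and the fatty acid hydroxylase Cyp4a14 had 4. Among Ugt genes, Ugt1a9 had 6 reads, Ugt2b5 had 2, and Ugt1a2 had 1. These totals are too small to compare the groups. Of the genes that bear a matching symbol in RefSeq for GRCm38.p6, 25 were not rows of the table and are not analysed here.

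The P450 signal came instead mainly from Cyp2s1 and the Cyp4 family, which act on lipids and retinoids in many tissues (plot of the 28 levels). The levels of all 56 Cyp genes summed to 147.9, 158.4, and 148.8 FPKM in control tumors 1, 3, and 4 and to 142.9, 185.6, and 154.8 FPKM in Sora tumors 2, 3, and 4. The means were 151.7 ± 5.85 FPKM in control and 161.1 ± 22.05 FPKM in Sora tumors (SD, n = 3 each), and the groups overlapped. Cyp2s1 alone made up 32.2% to 40.7% of this sum, and Cyp2s1 with the 14 Cyp4 genes made up 73.4% to 78.7%. The 30 genes of the Cyp2a, 2c, 2d, 3a, and 4a subfamilies with Cyp1a2, Cyp2b9, Cyp2b10, and Cyp2e1 made up 10.7% ± 1.37 in control and 8.36% ± 0.763 in Sora tumors (SD, n = 3 each). Of the described genes, 18 had a mean level of at least 1 FPKM over the 6 tumors, 11 of them at least 5 FPKM, and 10 lay under 1 FPKM. The UGT signal was narrower still: Ugt2b34 gave 70.9% to 75.0% of the summed Ugt level, and with Ugt2b35 92.7% to 95.7%. The Ugt1a genes share exons with each other, so these shares depend on how reads on the shared part were counted, which was not tested.

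**Figure D1:**
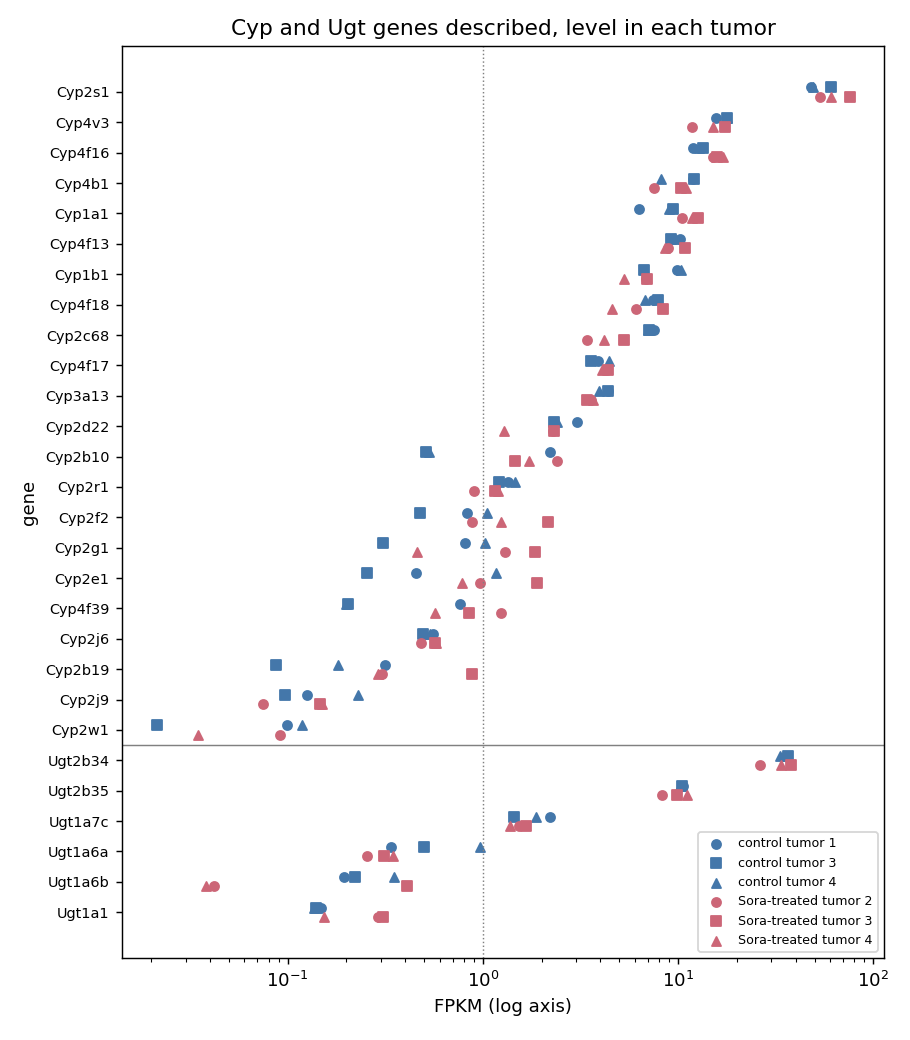
Levels of the 28 described genes in FPKM on a log axis, 1 point per tumor, control tumors in blue and Sora tumors in red, genes ordered by their mean with the Cyp genes above the Ugt genes and a dotted line at 1 FPKM. Cyp2s1 and Ugt2b34 lead with levels between 26.1 and 75.6 FPKM, and Cyp2w1 and Cyp2j9 are lowest; Cyp2w1 was at 0 in Sora tumor 3, which a log axis cannot show.

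To ask which members differed between Sora-treated and control tumors, a model was fitted to the counts of all 16513 genes that passed the count filter, and p-values were adjusted over all of them (edgeR quasi-likelihood test with Benjamini-Hochberg adjustment, threshold 0.05). One member, Cyp2c68, was down-regulated, and 0 of the 28 were up-regulated. The background was 1.94% of all genes tested for up-regulation and 1.34% for down-regulation. Before adjustment, 5 members were higher and 4 were lower in Sora tumors with p under 0.05, against 8.53% and 8.69% of all genes. DESeq2 called 2 members higher (Cyp1a1 and Cyp4f16) and 2 lower (Cyp1b1 and Cyp2c68), with 4.0% and 3.71% of all genes called. Without Sora tumor 4, edgeR called 0 members, and 0.0245% of all genes were higher and 0.00613% lower. In that fit, 6 members were higher and 4 lower with an unadjusted p under 0.05, against 6.12% and 5.80% of all genes. The 2 groups of FPKM did not overlap for 3 members that were higher in Sora tumors (Cyp1a1, Cyp4f16, and Ugt1a1; background 10.6%) and for 4 that were lower (Cyp2c68, Cyp2d22, Cyp2r1, and Cyp3a13; background 11.2%). The estimated log2 fold change, Sora minus control, was above 0 in 11 and below 0 in 11 of the 22 Cyp genes, with a median of 0.0077, and above 0 in 1 and below 0 in 5 of the 6 Ugt genes, with a median of -0.18 (-0.27 without Sora tumor 3 and -0.091 without Sora tumor 2). That median includes Ugt1a6b, which had 10 counts in only 1 Sora tumor, and it was -0.10 over the genes with 10 counts in every tumor. Over all genes tested the median was -0.00037. With 1 library per tumor, these p-values measure the spread between these tumors.

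**Figure D2:**
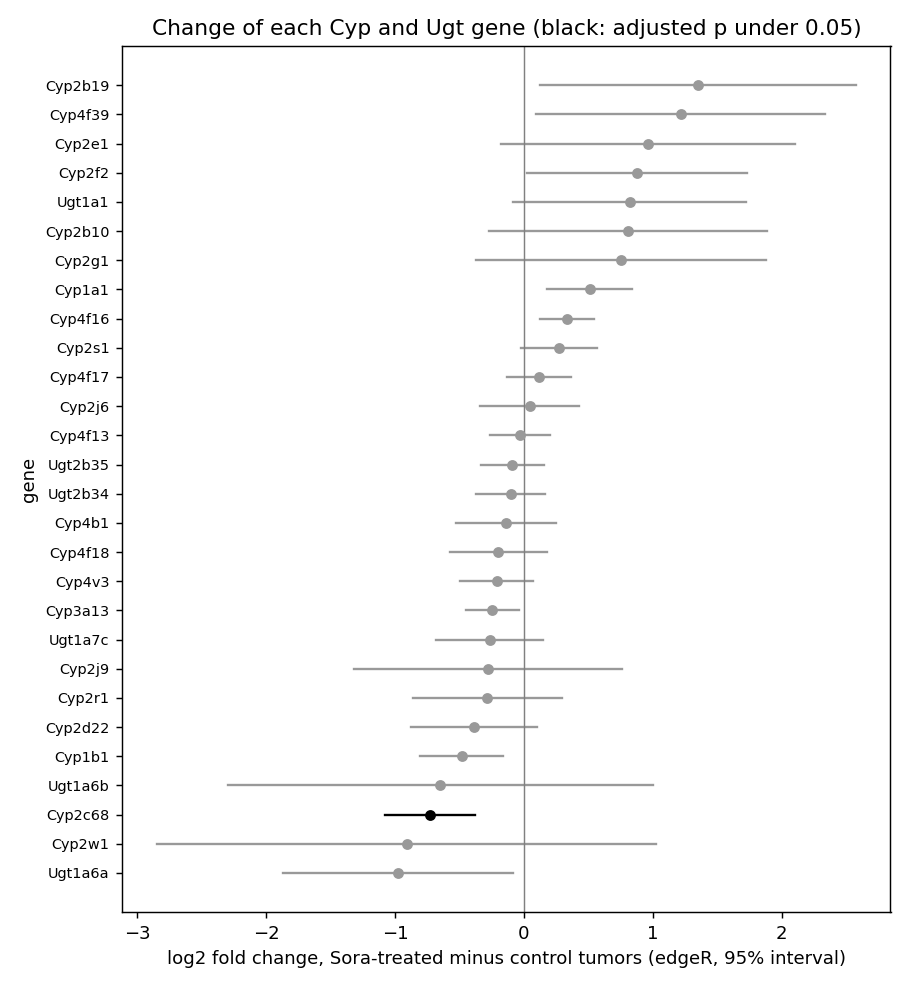
Log2 fold change, Sora minus control, of the 28 described genes from the edgeR fit on 3 control and 3 Sora tumors; points are estimates and bars 95% confidence intervals. Cyp2c68, at -0.73, is the gene called at an adjusted p under 0.05, and the widest intervals belong to the genes with few reads, such as Cyp2w1 (-2.84 to 1.03).

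Cyp2c68 belongs to the Cyp2c subfamily, whose enzymes oxidize drugs and arachidonic acid, and it was the 1 Cyp2c gene with an appreciable level. It spans chr19:39688836-39741101 in GRCm38.p6. Its level was 7.496, 7.08, and 6.97 FPKM in control tumors 1, 3, and 4 and 3.42, 5.27, and 4.19 FPKM in Sora tumors 2, 3, and 4. Each Sora tumor lay below each control tumor, and Sora tumor 3 was the nearest to the controls. The mean was 7.18 ± 0.277 FPKM in control and 4.29 ± 0.930 FPKM in Sora tumors (SD, n = 3 each), from 428, 431, and 461 against 194, 320, and 261 reads. The log2 fold change was -0.73 (SE 0.16, 95% interval -1.08 to -0.38, edgeR adjusted p = 0.035). Its size barely depended on Sora tumor 4 (-0.73 without it), but the call did: the adjusted p was then 0.14. It was also 0.093, 0.081, and 0.088 without control tumors 1, 3, and 4 and 0.10 without Sora tumor 2, with fold changes between -0.75 and -0.58. Without Sora tumor 3 the gene was called, at -0.89 (adjusted p = 0.0089). Of the 50-base windows of its transcripts, 43.3% were identical to a window of another gene, chiefly Cyp2c40, Cyp2c67, and Cyp2c69, so its reads could in part stem from such copies. Cyp2c40 and Cyp2c67 had at most 5 reads in any tumor with deposited counts, and Cyp2c69 was not a row of the table and is not analysed here. Hepatoma markers did not move in 1 direction beside it: of 12 tested, 2 were up-regulated (Hnf4a and Apoa1) and 2 down-regulated, including Alb (1321, 1663, and 1680 FPKM in control and 974, 1198, and 1003 FPKM in Sora tumors). Summed macrophage markers were at 2213 to 2405 FPKM in control and at 1749, 2261, and 1927 FPKM in Sora tumors 2, 3, and 4. The median log2 fold change was -0.21 for macrophage, -0.21 for fibroblast, and -0.20 for endothelial markers. It was above 0 for neutrophil (0.50), skin (0.38), adipocyte (0.65), and skeletal muscle markers (0.19). The part of hepatoma cells or any of these cell types in the Cyp2c68 result was not tested.

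The Cyp1 genes are the classic targets of AhR, and Cyp1a1 and Cyp1b1 lay at similar levels in control tumors. Cyp1a1, which oxidizes polycyclic aromatic hydrocarbons, was at 6.28, 9.39, and 8.95 FPKM in control tumors 1, 3, and 4 and at 10.5, 12.6, and 11.8 FPKM in Sora tumors 2, 3, and 4. All Sora tumors lay above all control tumors, with control tumor 1 the lowest. Its log2 fold change was 0.51 (SE 0.15, 95% interval 0.18 to 0.84), which missed the threshold in edgeR (adjusted p = 0.093) and passed it in DESeq2 (adjusted p = 0.014). Without Sora tumor 4 the edgeR adjusted p of Cyp1a1 was 0.29, and without control tumor 1 the estimate was 0.34. Cyp1b1, which oxidizes estrogens and is typical of stromal cells, pointed the other way. It was at 9.84, 6.68, and 10.3 FPKM in control and at 6.81, 6.96, and 5.28 FPKM in Sora tumors, and control tumor 3 fell among the Sora tumors. For Cyp1b1 the log2 fold change was -0.48 (SE 0.14, 95% interval -0.80 to -0.16, edgeR adjusted p = 0.10, DESeq2 adjusted p = 0.015), and the estimate rested on single tumors. It was -0.64 without control tumor 3 (edgeR adjusted p = 0.028), -0.37 without control tumor 4 (0.29), and -0.38 without Sora tumor 4 (0.36), and of the 6 fits that leave out 1 tumor only the first called the gene. The summed level of 10 fibroblast markers also lay lower in the Sora tumors, at 1610 to 1944 FPKM against 2096 to 2196 FPKM in control tumors, and its part in the Cyp1b1 result was not tested. Of these 10 markers, 9 had an estimate below 0, and edgeR called 1 and DESeq2 4 lower.

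Among the regulators, 2 AhR targets that limit the receptor's own activity were up-regulated (plot of the Cyp1 and AhR genes). Ahrr, the AhR repressor, was at 0.259, 0.315, and 0.224 FPKM in control tumors 1, 3, and 4 and at 0.594, 0.690, and 0.526 FPKM in Sora tumors 2, 3, and 4. The change in Ahrr was, on the log2 scale, 1.19 (SE 0.26, edgeR adjusted p = 0.035). Tiparp, a mono-ADP-ribosyltransferase that modifies AhR, rose from 12.99, 12.9, and 14.5 FPKM in control to 24.7, 19.9, and 27.1 FPKM in Sora tumors, a log2 fold change of 0.84 (SE 0.12, edgeR adjusted p = 0.0087). For both genes each Sora tumor lay above each control tumor. Without Sora tumor 4 the estimates stayed at 1.26 and 0.72, but the adjusted p was 0.12 for Ahrr and 0.054 for Tiparp. The receptor itself differed by less than the spread between tumors: Ahr was at 36.6, 32.1, and 34.6 FPKM in control and 33.0, 39.6, and 34.5 FPKM in Sora tumors (log2 fold change 0.06, edgeR adjusted p = 0.76), and Arnt had a log2 fold change of -0.04 (edgeR adjusted p = 0.86). The AhR core occurred 3 times in the Ahrr promoter, first bases at -107, -82, and -27, and at -170 in that of Tiparp.

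**Figure D3:**
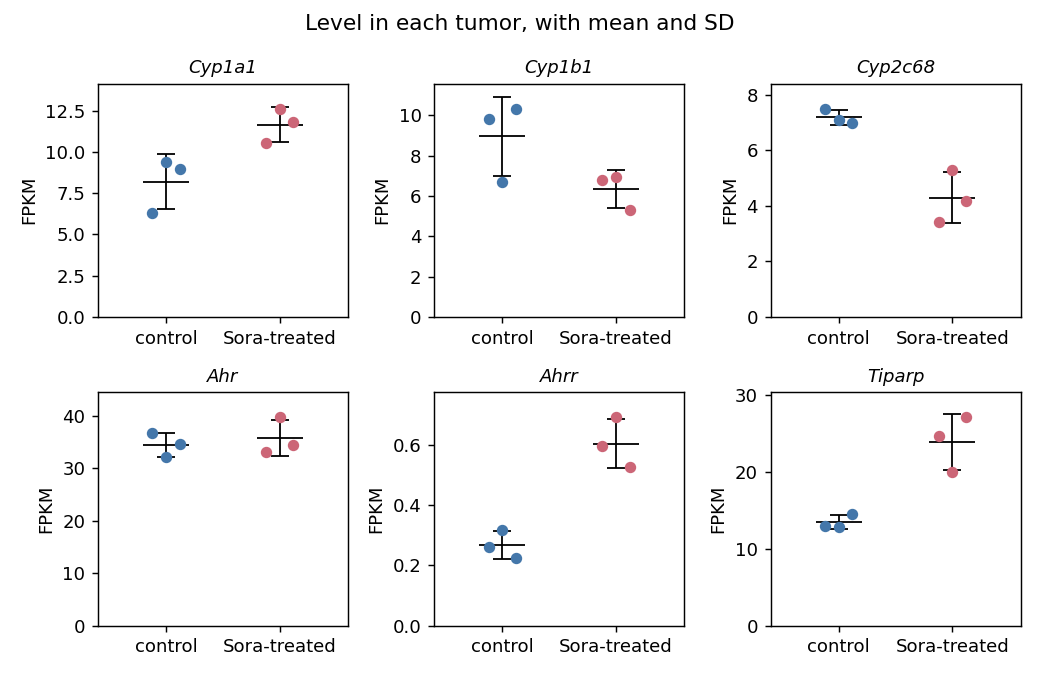
FPKM of Cyp1a1, Cyp1b1, Cyp2c68, Ahr, Ahrr, and Tiparp in each tumor, 1 panel per gene with its own axis from 0; points are tumors, with group means and SD (n = 3 each). The Sora tumors sit above the control tumors for Cyp1a1, Ahrr, and Tiparp, and below them for Cyp2c68, whereas for Cyp1b1 control tumor 3 falls among the Sora tumors and for Ahr the groups overlap.

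Cyp2s1, a P450 of epithelia outside the liver that handles retinoids and lipid peroxides, had the highest level of all 70 members. It was at 47.6, 60.4, and 49.3 FPKM in control tumors 1, 3, and 4 and at 53.2, 75.6, and 60.6 FPKM in Sora tumors 2, 3, and 4. The groups overlapped, with Sora tumor 3 highest, and the log2 fold change was 0.27 (SE 0.13, 95% interval -0.02 to 0.57, edgeR adjusted p = 0.33), or 0.14 without Sora tumor 3 and 0.41 without control tumor 3. Cyp3a13, the 1 described Cyp3a gene and one found in the gut as well as the liver, was at 4.39, 4.38, and 3.93 FPKM in control and 3.58, 3.41, and 3.65 FPKM in Sora tumors. Its groups did not overlap, yet the difference was small, at -0.24 (SE 0.09, 95% interval -0.45 to -0.04, edgeR adjusted p = 0.20). Cyp2d22, the described Cyp2d gene, was at 3.02, 2.31, and 2.40 FPKM in control and 2.29, 2.31, and 1.28 FPKM in Sora tumors. Its groups were kept apart only by the narrow gap between control tumor 3 and Sora tumor 3, and the log2 fold change was -0.39 (SE 0.22, edgeR adjusted p = 0.42), or -0.17 without Sora tumor 4. Cyp2r1, a vitamin D 25-hydroxylase, was at 1.20 to 1.46 FPKM in control and 0.903 to 1.19 FPKM in Sora tumors (-0.28, SE 0.26, edgeR adjusted p = 0.65), or -0.16 without Sora tumor 2. Cyp2j6, an arachidonic acid epoxygenase, was at 0.496 to 0.555 FPKM in control and 0.482 to 0.573 FPKM in Sora tumors (0.05, SE 0.17, edgeR adjusted p = 0.93).

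Cyp2b19 and Cyp4f39 had the largest estimated rises of the 28 members, and both genes, like Cyp2b10, were low and varied widely between tumors. Cyp2b19, an epoxygenase of keratinocytes, was at 0.315, 0.0875, and 0.181 FPKM in control tumors 1, 3, and 4 and at 0.305, 0.878, and 0.289 FPKM in Sora tumors 2, 3, and 4. Sora tumor 3 stood apart with 80 reads against 8 to 27 in the other tumors, and the log2 fold change was 1.35 (SE 0.56, edgeR adjusted p = 0.23), or 0.64 (0.55) without that tumor. Cyp4f39, which makes very long hydroxy fatty acids for the skin barrier, was at 0.762, 0.204, and 0.198 FPKM in control and 1.24, 0.853, and 0.565 FPKM in Sora tumors. Control tumor 1 overlapped with the Sora tumors, and the log2 fold change was 1.22 (SE 0.51, edgeR adjusted p = 0.24), or 2.12 (0.052) without control tumor 1. Cyp2b10, the textbook CAR target of liver, was at 2.20, 0.511, and 0.529 FPKM in control and 2.38, 1.46, and 1.72 FPKM in Sora tumors. Control tumor 1 again lay among the Sora tumors. For Cyp2b10 the log2 fold change was 0.81 (SE 0.49, edgeR adjusted p = 0.44) with all tumors. It was 1.82 (edgeR adjusted p = 0.037) without control tumor 1 but 0.49 (0.66) without control tumor 3 and 0.48 (0.71) without control tumor 4, so the estimate rested on which control was left out. The summed level of 12 keratinocyte and skin markers was 957, 450, and 520 FPKM in control and 981, 685, and 827 FPKM in Sora tumors, so control tumor 1 and Sora tumor 2 were the highest in skin markers as in Cyp2b10. All 12 had an estimate above 0 and 0 were called by edgeR or DESeq2, with 2 higher at an unadjusted p under 0.05. Cyp4f39 was likewise highest in Sora tumor 2, but Cyp2b19 was highest in Sora tumor 3. Skin markers were lower in that tumor than in control tumor 1 and Sora tumors 2 and 4. CAR itself (Nr1i3) was at 0.431 to 0.679 FPKM in control and 0.495 to 1.03 FPKM in Sora tumors (edgeR adjusted p = 0.53).

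Members with roles in other tissues, Cyp2e1, Cyp2f2, and Cyp2g1, were highest in Sora tumor 3, as was Cyp2b19. Cyp2e1, Cyp2f2, and Cyp2g1 were grouped after their values were seen, so nothing is read from their shared peak. Cyp2e1, the ethanol-oxidizing P450 of liver and fat, was at 0.454, 0.255, and 1.16 FPKM in control tumors 1, 3, and 4 and at 0.968, 1.89, and 0.782 FPKM in Sora tumors 2, 3, and 4. The groups overlapped (log2 fold change 0.96, SE 0.52, edgeR adjusted p = 0.38). Cyp2f2, known from club cells of the airway, and Cyp2g1, known from the olfactory mucosa, reached 2.17 and 1.85 FPKM in Sora tumor 3, with control ranges of 0.478 to 1.05 and 0.307 to 1.03 FPKM. Their adjusted p-values in edgeR were 0.28 and 0.50. Leaving out 1 tumor in turn, the estimate was 0.50 to 1.78 for Cyp2e1, 0.47 to 1.15 for Cyp2f2, and 0.31 to 1.14 for Cyp2g1, in each case lowest without Sora tumor 3. The summed level of 9 adipocyte markers was 70.9, 69.0, and 102 FPKM in control and 83.1, 131, and 102 FPKM in Sora tumors, with Sora tumor 3 highest there too. All 8 adipocyte markers tested had an estimate above 0; edgeR called 0, DESeq2 called 2, and 4 were higher at an unadjusted p under 0.05. The summed level of 10 skeletal muscle markers was 110, 146, and 117 FPKM in control and 120, 173, and 134 FPKM in Sora tumors. It too was highest in Sora tumor 3, and 9 of these 10 markers had an estimate above 0, with 0 called by edgeR or DESeq2. The part of skin, fat, or muscle in these 6 genes was not tested.

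**Figure D4:**
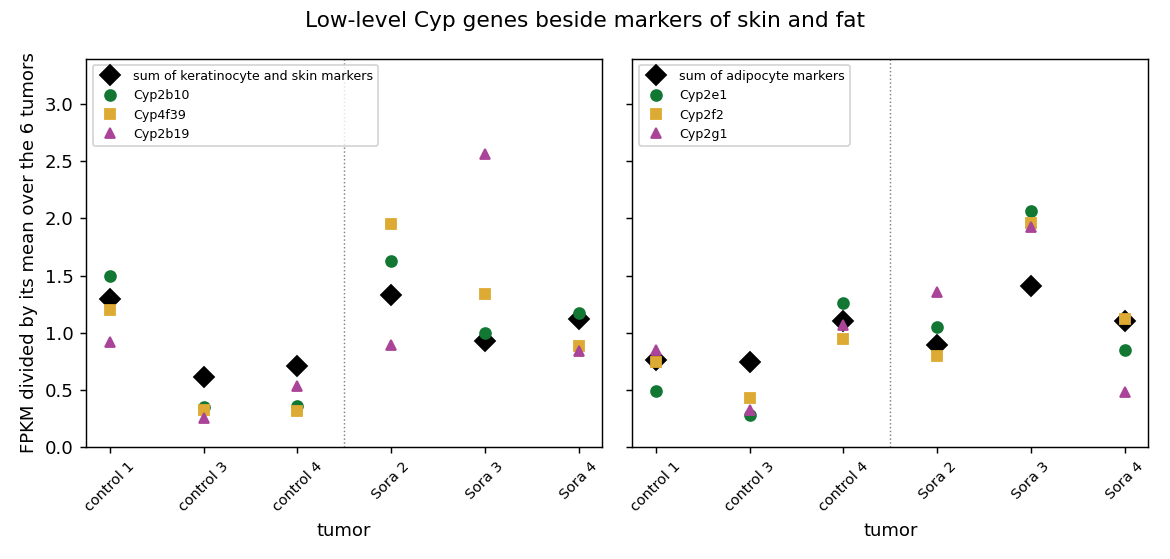
FPKM in each tumor divided by the gene's mean over the 6 tumors; left, Cyp2b10, Cyp4f39, and Cyp2b19 beside the summed keratinocyte and skin markers, right, Cyp2e1, Cyp2f2, and Cyp2g1 beside the summed adipocyte markers (black diamonds). On the left, control tumors 3 and 4 are lowest in every series, and Cyp2b19 is highest in Sora tumor 3, unlike the skin markers. On the right, Sora tumor 3 is highest in every series. The genes on the right were grouped after their values were seen, so nothing is read from their shared peak.

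The Cyp4 family hydroxylates the end of fatty acid chains, among them signaling lipids such as leukotrienes. Cyp4f16 was the member of this family whose groups did not overlap: it was at 11.9, 13.4, and 12.8 FPKM in control tumors 1, 3, and 4 and at 15.04, 15.8, and 16.9 FPKM in Sora tumors 2, 3, and 4. On the log2 scale it differed by 0.34 (SE 0.09, 95% interval 0.13 to 0.54), which missed the threshold in edgeR (adjusted p = 0.083) and passed it in DESeq2 (adjusted p = 0.042). Without Sora tumor 4 the edgeR adjusted p of Cyp4f16 was 0.31. Of its 50-base windows, 17.4% were shared with other genes, mainly Cyp4f37. Cyp4v3, the highest of the family by its mean over the 6 tumors, was at 15.6, 17.8, and 17.9 FPKM in control and 11.8, 17.3, and 14.998 FPKM in Sora tumors, and the groups overlapped (-0.21, SE 0.13, edgeR adjusted p = 0.45), with -0.066 without Sora tumor 2 and -0.33 without Sora tumor 3. Cyp4b1, a fatty acid hydroxylase of the lung, was at 11.9, 12.03, and 8.15 FPKM in control and 7.54, 10.4, and 10.96 FPKM in Sora tumors (-0.14, SE 0.18, edgeR adjusted p = 0.75). Cyp4f13 (8.58 to 10.8 FPKM) and Cyp4f17 (3.59 to 4.399 FPKM) also overlapped between groups, with log2 fold changes of -0.03 and 0.12. The estimate for Cyp4f17 was 0.071 without control tumor 3 and 0.20 without control tumor 4. Cyp4f18, the leukotriene B4 hydroxylase of neutrophils, was at 7.39, 7.86, and 6.75 FPKM in control and 6.10, 8.40, and 4.60 FPKM in Sora tumors (-0.20, SE 0.17, edgeR adjusted p = 0.62), and its estimate was -0.023 without Sora tumor 4 and -0.44 without Sora tumor 3. The summed neutrophil markers ran the other way, at 119 to 160 FPKM in control and 164 to 229 FPKM in Sora tumors, with 5 of 9 markers higher and 0 lower at an unadjusted p under 0.05 and 1 called higher by edgeR and by DESeq2. The summed macrophage markers were at 2213 to 2405 FPKM in control and 1749 to 2261 FPKM in Sora tumors; 12 of 14 had an estimate below 0, 7 were lower and 1 higher at an unadjusted p under 0.05, and edgeR called 1 and DESeq2 6 lower. The part of either cell type in the Cyp4f18 values was not tested.

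Ugt2b34 and Ugt2b35, of the Ugt2b subfamily, which conjugates steroids and other lipids, carried nearly all of the UGT signal, and neither was called. Ugt2b34 was at 35.5, 36.7, and 33.4 FPKM in control tumors 1, 3, and 4 and at 26.1, 37.9, and 33.5 FPKM in Sora tumors 2, 3, and 4. Ugt2b35 was at 10.6, 10.5, and 10.3 FPKM in control and 8.28, 9.88, and 11.05 FPKM in Sora tumors. Both overlapped between groups and were lowest in Sora tumor 2, with log2 fold changes of -0.10 (95% interval -0.37 to 0.16) and -0.09 (95% interval -0.33 to 0.16). The summed level of the 14 Ugt genes was 48.6 ± 1.31 FPKM in control and 44.5 ± 7.21 FPKM in Sora tumors (SD, n = 3 each).

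The Ugt1a genes share their last exons and differ in the first, so that counts on the shared part do not show which gene was read. In GENCODE M21, 913 of the 2224 exon bases of Ugt1a1 belong to it alone, and 58.2% of its 50-base windows also occur in another gene. The share was 52.1% for Ugt1a6a, 79.8% for Ugt1a6b, and 53.7% for Ugt1a7c. Ugt1a7c, which conjugates phenols, was at 2.20, 1.45, and 1.87 FPKM in control and 1.52, 1.65, and 1.37 FPKM in Sora tumors (-0.27, SE 0.19, edgeR adjusted p = 0.52), and the estimate was -0.13 without control tumor 1. Ugt1a1, the bilirubin-conjugating enzyme, was low, at 0.149, 0.139, and 0.137 FPKM in control and 0.289, 0.307, and 0.154 FPKM in Sora tumors. Its Sora tumors lay above its control tumors, with a log2 fold change of 0.82 (SE 0.41, 95% interval -0.08 to 1.73, edgeR adjusted p = 0.35). Ugt1a6a, a further phenol-conjugating form, had the largest estimated decrease among the Ugt genes, from 0.339, 0.499, and 0.962 FPKM to 0.253, 0.310, and 0.346 FPKM, but the groups overlapped (-0.97, SE 0.41, edgeR adjusted p = 0.24), and the estimate was -0.46 (0.62) without control tumor 4. Ugt1a6b had 31 reads in Sora tumor 3 and 3 in each of the other Sora tumors, against 14, 17, and 29 in control tumors. Its log2 fold change was -0.65 (edgeR adjusted p = 0.72). It was -0.21 without Sora tumor 2, -0.19 without Sora tumor 4, and -0.36 without control tumor 4. Without Sora tumor 3 the estimate was -2.61 (edgeR adjusted p = 0.040), but in that fit the gene passed the count filter only through the control tumors, so nothing is read from it. It passed the count rule although in the Sora group only tumor 3 had 10 counts. Cyp2w1, known from fetal gut and colon tumors, is the other such gene, with 13, 3, and 18 reads in control and 12, 0, and 5 reads in Sora tumors (-0.91, SE 0.88, edgeR adjusted p = 0.66, and -0.32 without Sora tumor 3).

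Partner genes of these enzymes were read against the same background (1.94% of all genes up-regulated and 1.34% down-regulated). Of 9 redox partners that pass electrons to P450 enzymes, 0 were called by edgeR, 1 was called lower by DESeq2, and 1 higher and 2 lower had an unadjusted p under 0.05. The reductase Por was at 26.2, 28.8, and 28.9 FPKM in control and 31.2, 29.3, and 32.1 FPKM in Sora tumors (log2 fold change 0.15, SE 0.08, edgeR adjusted p = 0.38). Of 11 genes for the supply of UDP-glucuronic acid, 1 was up-regulated and 1 down-regulated by edgeR and by DESeq2, and 2 were higher and 2 lower at an unadjusted p under 0.05. Ugp2, which makes UDP-glucose, fell from 190.9, 185.3, and 181.5 FPKM in control to 119.8, 156.7, and 123.7 FPKM in Sora tumors (-0.47, SE 0.10, edgeR adjusted p = 0.033). Hk1, the hexokinase at the start of the pathway, rose from 30.7, 32.7, and 33.5 FPKM to 41.1, 40.6, and 42.2 FPKM (0.36, SE 0.08, edgeR adjusted p = 0.031). Ugdh, which oxidizes UDP-glucose to UDP-glucuronic acid, was at 96.7 to 106.6 FPKM in control and 113.6 to 117.2 FPKM in Sora tumors (0.19, SE 0.07, edgeR adjusted p = 0.20). Of 12 genes of other P450 families, 0 were called by edgeR, with 1 higher and 3 lower at an unadjusted p under 0.05, and DESeq2 called 1 higher and 2 lower.

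Of 19 regulators of P450 and UGT genes, 3 were up-regulated and 0 down-regulated by edgeR and by DESeq2, against 1.94% of all genes up-regulated by edgeR and 4.0% by DESeq2. At an unadjusted p under 0.05, 5 were higher (8.53% of all genes) and 0 lower. Besides Ahrr and Tiparp, this was Hnf4a, at 15.8, 18.6, and 16.8 FPKM in control and 32.0, 24.0, and 32.3 FPKM in Sora tumors (0.80, SE 0.12, edgeR adjusted p = 0.013). Each Sora tumor lay above each control tumor. Nr1i2 (PXR) was listed at 0 in 4 of the 6 tumors and was not tested.

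Among 27 other phase 1 and phase 2 enzymes, 6 were down-regulated and 0 up-regulated, with 1.34% of all genes down-regulated as background. At an unadjusted p under 0.05, 2 were higher and 9 lower, against 8.53% and 8.69% of all genes. DESeq2 called 1 higher and 8 lower, against 4.0% and 3.71%. The 27 genes had a median log2 fold change of -0.18, with 5 above and 22 below 0. The median was -0.21 for macrophage, -0.21 for fibroblast, and -0.20 for endothelial markers, and above 0 for neutrophil, skin, adipocyte, and skeletal muscle markers. The part of these cell types in the enzyme values was not tested. The sulfotransferase Sult1c2 was at 5.92, 6.49, and 4.98 FPKM in control tumors 1, 3, and 4 and at 1.05, 2.09, and 1.16 FPKM in Sora tumors 2, 3, and 4 (-2.001, SE 0.26, edgeR adjusted p = 0.0085). The alcohol dehydrogenase Adh1 fell from 5.50, 7.38, and 6.31 FPKM to 1.45, 3.56, and 1.28 FPKM (-1.61, SE 0.33, edgeR adjusted p = 0.030). The monooxygenase Fmo1 fell from 8.53, 9.88, and 13.2 FPKM to 3.34, 7.10, and 3.24 FPKM (-1.20, SE 0.27, edgeR adjusted p = 0.038). In these 3 genes, as in Cyp2c68, Sora tumor 3 lay nearest to the controls. This was not particular to them, as it also held for Ugp2, Hnf4a, and Tiparp. Without Sora tumor 3, edgeR called 574 genes higher and 571 lower, against 321 and 222 with all tumors. Sult1a1 (-1.20), the retinol-oxidizing Adh7 (-0.95), and the epoxide hydrolase Ephx1 (-0.62) were the other 3, with edgeR adjusted p-values of 0.042, 0.044, and 0.039. Ephx1, the most abundant of the 6, was at 69.6, 71.8, and 73.3 FPKM in control and 38.3, 60.0, and 40.3 FPKM in Sora tumors. Without Sora tumor 4, 0 genes of these 5 lists were called. The adjusted p was then 0.058 for Sult1c2, 0.082 for Hnf4a, and 0.13 to 0.19 for Adh1, Adh7, Ephx1, Fmo1, Sult1a1, Hk1, and Ugp2, with every estimate in the same direction. Leaving out 1 tumor at a time, Sult1c2 and Tiparp were called in 5 of 6 fits and Hnf4a in 4, whereas each of the other 8 genes was called in 1.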

How the data were processed

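RNA of 6 Hepa1-6 tumors was sequenced, 3 of them from Sora-treated mice. The authors deposited raw read counts per gene for 5 tumors and FPKM for all 6. The paper names Bowtie2 and GRCm38, whereas the submitters' processing notes list fastp, HISAT2, HTSeq, R 3.2.0, DESeq2, and GRCm39; the annotation and the use of strand are not given in the sources used here. Coordinates and promoters are from RefSeq for GRCm38.p6, which may not be the build of the files.

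For Sora tumor 4, counts were recovered by multiplying its FPKM with the gene lengths that follow from the other tumors and with its total. They were whole within 0.001 for 20951 genes (100%), and 342 genes with 512 reads (0.0015%) had no known length and were left at 0. The same steps returned the counts of the 5 known tumors exactly (20969 to 21229 genes each).

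The 16513 genes that reached 10 counts in 3 or more of the 6 tumors were fitted by group with edgeR 4.0.16 (glmQLFit and glmQLFTest, TMM) in R 4.3.3, with Benjamini-Hochberg adjustment over all of them. DESeq2 1.42.0, limma 3.58.1 on log2(FPKM + 1) or log2(FPKM + 0.1), other scalings and filters, the replicate number as a block, and leaving out each tumor were alternatives. The standard error is that of the log2 fold change. With 31073830 to 36205814 reads per tumor, the described members had 51 to 30224 reads over the 6 tumors.

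Named were members with an adjusted p under 0.05, the 10 highest by mean FPKM, the 3 largest rises and 3 largest falls among the others, and textbook members; the remaining ones were named after their values were seen. Of partner genes, the called and defining ones were named; marker genes only where a result touches them. The members and lists were chosen with earlier results of these data known.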

Additional observations from a re-analysis of the deposited data

How the results depend on the processing

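Of 377 values of single members under the alternatives, 350 kept their direction and their side of the threshold, 8 lost and 8 gained a call, and 11 changed direction; 22 of the 28 members kept their direction throughout. All 8 lost calls were those of Cyp2c68, the only member with a call to lose. It lost the call with the replicate block, in both limma fits, and without control tumor 1, 3, or 4 or Sora tumor 2 or 4. Of the gained calls, 1 was Ugt1a6b without Sora tumor 3, from which nothing is read. The samples share only numbers 3 and 4, and tumors with the same number did not deviate together (r = -0.03 and -0.07 across genes). Tumors with unlike numbers gave r of -0.157 to 0.259. These values show no sign that the numbers pair the tumors, but so few pairs cannot exclude it. With the replicate block, edgeR called 0 members (7 higher and 3 lower at an unadjusted p under 0.05, against 5.27% and 4.1% of all genes), 80 genes higher, and 45 lower; Cyp2c68 was at -0.58 (adjusted p = 0.30), and Cyp4b1 (0.11), Cyp4f13 (0.037), Ugt2b34 (0.029), and Ugt2b35 (0.014) changed direction, with a Ugt median of -0.057. For members higher (0) and lower (1), DESeq2 gave 2 and 2 and no count filter 1 and 2; limma on log2(FPKM + 1) and on log2(FPKM + 0.1) gave 0 lower (3 and 2 at an unadjusted p under 0.05, against 9.61% and 5.86% of all genes). For all genes higher (321) and lower (222), DESeq2 gave 619 and 575, no filter 570 and 577, limma with + 1 136 and 62, and limma with + 0.1 0 and 0 (1435 and 1501 at an unadjusted p under 0.05). Partner genes lower (7) were 12 in DESeq2. With at least 1 count in at least 1 tumor, 67 members would be described.

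Leaving out 1 tumor in turn gave 0 to 1 members higher and 0 to 2 lower, 4 to 574 genes higher and 1 to 571 lower (lowest without Sora tumor 4, highest without Sora tumor 3), 0 to 3 partner genes higher and 0 to 9 lower, and a median log2 fold change of Cyp members of -0.057 to 0.16 (highest without control tumor 4) and of Ugt members of -0.27 to -0.091. The fit with 2 lower members was that without Sora tumor 3. They were Cyp2c68 and Ugt1a6b, and nothing is read from Ugt1a6b, which passed the count filter there only through the control tumors. The log2 fold change ranged from -0.017 to 0.13 for Cyp2j6, -0.50 to 0.16 for Cyp2j9, -0.30 to 0.017 for Cyp4b1, -0.13 to 0.021 for Cyp4f13, -0.22 to 0.039 for Ugt2b34, and -0.21 to 0.024 for Ugt2b35. The fits without a tumor have fewer samples, and the cause of the other differences was not tested. The near-silent members had too few reads for a comparison.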

Other observations

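A few near-silent members had uneven reads between tumors. Cyp3a57 had 26 of its 51 reads in Sora tumor 3 and 0 to 9 in each other tumor. Cyp4f37, whose transcripts share windows with Cyp4f16, had 27 of its 58 reads in the same tumor and 4 to 10 in each other. Cyp2u1, a fatty acid hydroxylase, had 2 to 6 reads in each control tumor and 2 to 9 in each Sora tumor. Cyp2j12 had 3, 0, and 6 reads in control and 9, 11, and 15 reads in Sora tumors. Cyp2c23, a renal epoxygenase, had 5, 10, and 10 reads in control and 6, 2, and 4 in Sora tumors. The genes were picked after their values were seen, and reads this few give no comparison of the groups.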
